A study of Danio rerio with 57 samples.

Results

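The first step of the H3K9me3 time course in zebrafish embryos, from 2 to 2.5 h post fertilisation (hpf), was described by comparing the list of H3K9me3 regions at 2 hpf with that at 2.5 hpf. The members were all regions of these lists on chromosomes 1 to 25, with touching regions merged. They numbered 7233 at 2 hpf and 19207 at 2.5 hpf, together 26440 of the 174771 merged regions in the 6 lists of the series. The 2 hpf list held no touching regions, and merging joined 1158 regions to others at 2.5 hpf. Per the labels, both groups were whole embryos of the AB strain with no treatment named, profiled with the antibody H3K9me3 Abcam 8898 and with E. coli DNA added as a spike-in. There were 2 libraries at 2 hpf and 3 at 2.5 hpf, which makes 5 of the 57 libraries of the series. The method was CUT&RUN, in which an antibody guides a nuclease to cut out the DNA around marked nucleosomes. The number of embryos per library is not stated in the sources.

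The authors deposited 1 list per time, so the lists used here hold no value per library, no test between the times was made, and no p-value of this comparison is given. Both lists were assigned to the time course. The confirmation experiment also had 9 H3K9me3 libraries at 2.5 hpf, made with 3 antibodies, and the lists do not state their libraries. The number of libraries and the time differ between the lists, the read depth is unknown, and their parts in the result cannot be told apart. The IgG libraries, 1 at 2 hpf and 2 at 2.5 hpf, were not analysed here. Intervals given below are 95% Wilson intervals. They cover the counting of regions only and treat neighbouring regions as independent, and the range over the 25 chromosomes is the other measure of spread.

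H3K9me3, the trimethylated form of lysine 9 on histone H3, marks heterochromatin, the compact chromatin of satellite repeats, transposons and other silenced sequence. It is written by methyltransferases of the Setdb1 and Suv39h families and is bound by HP1 proteins. Some of these writers also bind the mark, which is how a marked stretch is thought to spread to neighbouring nucleosomes once it has been nucleated. At 2 and 2.5 hpf the zebrafish embryo is dividing rapidly, runs mainly on maternal products, and has not reached the major wave of zygotic transcription. Regions are named by position, because the sources do not state the genome build of the lists and no annotation of that build was used. For the same reason no sequence is shown. Positions are counted from 1.

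Between the lists, most of the DNA marked at 2 hpf was marked again, and it made up a small part of what was marked at 2.5 hpf. Of the 6.29 Mb covered at 2 hpf, 3.96 Mb (62.9%) was covered at 2.5 hpf and 2.34 Mb was not. A further 18.2 Mb was covered at 2.5 hpf alone, 7.78 times the length that was no longer covered. Whole regions that disappeared held 74.5% of the length no longer covered, and trimmed edges of regions with a 1-to-1 partner held 22.9%. On the gained side, new regions held 72.3% of the length, outgrowth of 1-to-1 regions 22.5% and regions that joined several earlier ones 4.72%. Covered length per chromosome was between 3.09 and 4.29 times its 2 hpf value, and was higher at 2.5 hpf on all 25 chromosomes. Of 1361 windows of 1 Mb, 1319 (96.9%) had more covered length at 2.5 hpf and 34 had less.

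A 2 hpf region was called kept when at least 1 bp of it lay in a 2.5 hpf region. By this rule 4323 of 7233 regions were kept (59.8%, interval 58.6% to 60.9%) and 2910 were lost. The share kept followed the width of the region. Of regions under 500 bp, 31.8% were kept (536 of 1688). The share was 59.3% from 500 bp to under 1 kb (2243 of 3782), 84.7% from 1 to under 2 kb (1098 of 1297) and 95.7% from 2 to under 5 kb (428 of 447). Of the 19 regions of 5 kb and over, 18 were kept. The intervals of the first 4 classes did not overlap. A wide region is touched more readily than a narrow one, so the share was also counted at the middle base of each region, a measure added after the data were seen. The middle base was covered at 2.5 hpf in 28.7% of regions under 500 bp, 53.2% from 500 bp to under 1 kb, 76.5% from 1 to under 2 kb and 89.3% from 2 to under 5 kb. For comparison, 1.64% of all chromosomal bases were covered at 2.5 hpf.

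The authors' own values at 2 hpf, which the comparison did not use, separated kept from lost regions as well. The authors' p-value had a median of 0.290 in kept regions and 0.680 in lost ones, and their signal had a median of 66.9 against 33.8. The lists have no column names, and which columns hold the p-value and the signal was read from the values. The sources state neither what that p-value tests nor the unit of the signal. A high p-value did not always go with a low signal. The 7 regions at exactly the highest p-value at 2 hpf, which rounds to 0.999, had a median signal of 357.8, against 49.6 over the list. Some other regions had slightly lower values that round to the same figure. In 4 equal groups of regions ordered by the p-value, from lowest to highest, 87.3%, 72.6%, 51.2% and 28.0% were kept. Low p-values went with wide regions, with median widths of 1403 bp in the first group and 480 bp in the last. Among regions of 500 bp to under 1 kb alone, the same groups gave 80.1%, 71.9%, 54.1% and 33.3%. Width still fell across the groups within this class, with medians of 797, 719, 612 and 500 bp. Regions that the authors named primary were kept in 85.3% of cases (1937 of 2271) and those named secondary in 48.1% (2386 of 4962). Within the class of 500 bp to under 1 kb, these shares were 78.0% and 54.9%, with median widths of 788 and 612 bp. Neither header nor label explains the 2 names.

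**Figure D1:**
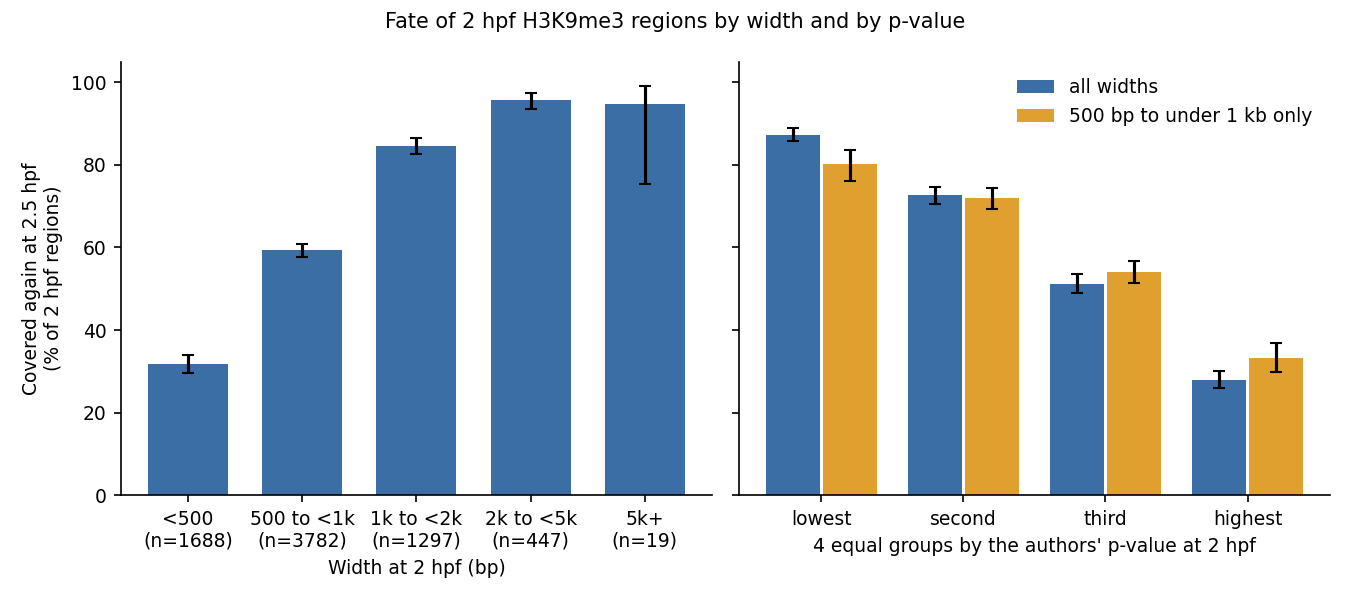
Share of 2 hpf H3K9me3 regions covered again at 2.5 hpf (%), by width at 2 hpf in bp (left) and in 4 equal groups by the authors' p-value at 2 hpf (right), with bars as shares and whiskers as 95% Wilson intervals over regions. The share goes from 31.8% under 500 bp to 95.7% at 2 to under 5 kb, and from 87.3% in the group with the lowest p-values to 28.0% in the highest.

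Regions close to another 2 hpf region were kept more often than isolated ones. With the nearest other 2 hpf region within 1 kb, 79.2% were kept (interval 74.8% to 83.1%), against 52.8% (50.5% to 55.2%) with none within 100 kb. The bins between, up to 5, 10, 50 and 100 kb, gave 68.2%, 60.2%, 58.7% and 55.8%. Width differed along the same axis, from a median of 876 bp in the nearest bin to 556 bp in the farthest. Among regions of 500 bp to under 1 kb the nearest bin had 74.1% kept and the farthest 55.7%. Of the 2910 lost regions, 479 (16.5%) had a 2.5 hpf region within 1 kb and 1551 (53.3%) within 10 kb, while 503 had none within 50 kb. Of the bases outside 2.5 hpf regions, 2.74% lay within 1 kb of one and 20.2% within 10 kb. Regions were measured from their edges, which brings them nearer than a single base.

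The 5 widest lost regions lay on chromosomes 4, 5 and 6. The widest, on chromosome 5 from 35980029 to 35985033 (5005 bp), was 271368 bp from the nearest 2.5 hpf region and had no covered base in any later list. On chromosome 6, the 3816 bp region from 26267768 to 26271583 was named primary with an authors' p-value of 0.0175, and it too was at 0 in every later list. On chromosome 4, the 3652 bp region from 43352169 to 43355820, also named primary, was likewise never covered again. The other two were neighbours near the end of chromosome 4, from 77555406 to 77559269 and from 77559949 to 77564798. Both were listed with the same signal of 6034 and a p-value of 0.999. They were absent at 2.5 hpf, covered over 100% and 99.2% at 3 hpf, and absent again from 3.5 hpf on. The region on chromosome 5 also had a p-value of 0.999. Of the 7 regions at exactly the highest p-value, 6 overlapped a 2.5 hpf region and none was 5 kb or wider. The region on chromosome 5 was therefore not among them, and the neighbours on chromosome 4 were not both among them.

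Growth at the edges was read from the 3763 cases in which exactly 1 region at 2 hpf overlapped exactly 1 at 2.5 hpf. At 2 hpf these regions had a median width of 772 bp, and their partners at 2.5 hpf of 1389 bp. The median ratio within a pair was 1.59, with a range from the 10th to the 90th percentile of 0.774 to 4.14. The later region was wider in 2960 pairs (78.7%), at least 2 times as wide in 1400 (37.2%) and narrower in 769 (20.4%). In 1859 pairs (49.4%) it held the whole of the earlier region, and in 270 (7.18%) it lay inside it. The ratio was larger for narrow regions, with medians of 1.84 under 500 bp, 1.62 from 500 bp to under 1 kb, 1.50 from 1 to under 2 kb and 1.35 from 2 to under 5 kb. The difference in bp went the other way, with medians of 364.5, 407.5, 683 and 920.5 bp. Pairs were picked for overlapping, which favours wide regions in either list. The classes were set by the 2 hpf width, which is also the divisor of the ratio. No region was narrower than 247 bp at 2 hpf or 250 bp at 2.5 hpf, which limits how far a narrow region can shrink. Part of the order of the ratios is therefore built into the measure.

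A side was called extended when its later edge lay at least 100 bp outside the earlier one, and retracted when it lay at least 100 bp inside. Most pairs were extended on some side, 3111 of 3763 (82.7%), and 1292 (34.3%) on both. The share extended on both sides ranged from 26.3% on chromosome 7 to 43.7% on chromosome 9. On 1 side alone 1819 pairs (48.3%) were extended, of which 901 were at the same time retracted on the other side. Both edges stayed within 100 bp in 277 pairs (7.36%) and both retracted in 89 (2.37%). Lower and higher positions, and the nearer and the farther chromosome end, were reached about equally often. Extension on 1 side was to lower positions in 886 pairs and to higher positions in 933, a lower-side share of 48.7% (interval 46.4% to 51.0%), with more lower-side cases on 9 chromosomes and more higher-side cases on 13. It was towards the nearer chromosome end in 50.4% of these pairs (48.1% to 52.7%). With the nearest 2 hpf neighbour between 10 and 50 kb away, 51.2% (47.0% to 55.3%) extended towards it. Over all distances the share was 49.4% (47.1% to 51.7%). It was 50.7% (45.0% to 56.3%) at over 50 to 100 kb, 50.4% (45.6% to 55.1%) beyond 100 kb and 38.7% (23.7% to 56.2%) within 1 kb. The share was 50.3% (43.4% to 57.1%) with the neighbour over 5 to 10 kb away. It was 43.7% (38.1% to 49.4%) at over 1 to 5 kb, the only distance where the interval lies below 50%. No correction was made for looking at several distances. A region that reaches its neighbour leaves the 1-to-1 set, and 21.6% of gaps over 1 to 5 kb were closed. The part of this in the share at over 1 to 5 kb was not tested.

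The 4403 extended edges had a median displacement of 543 bp and a 90th percentile of 2126 bp, and 1334 (30.3%) moved by 1 kb or more. The 1365 retracted edges had a median of 263 bp, and 65 (4.76%) moved by 1 kb or more. A retraction cannot exceed the width of the earlier region, and a region that retracts fully counts as lost, so the smaller retractions are in part set by how the pairs were chosen. Lower and higher sides were alike in both, with median extensions of 520.5 and 565 bp and median retractions of 264.5 and 259 bp. The total was 4.04 Mb of outgrowth against 0.499 Mb of retraction. Where both sides extended, the longer side had a median of 1161 bp and the shorter 319 bp, an order that sorting the sides fixes. The lists limit how finely an edge can be read: 16.3% of 2 hpf regions and 12.8% of 2.5 hpf regions were exactly 500 bp wide.

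**Figure D2:**
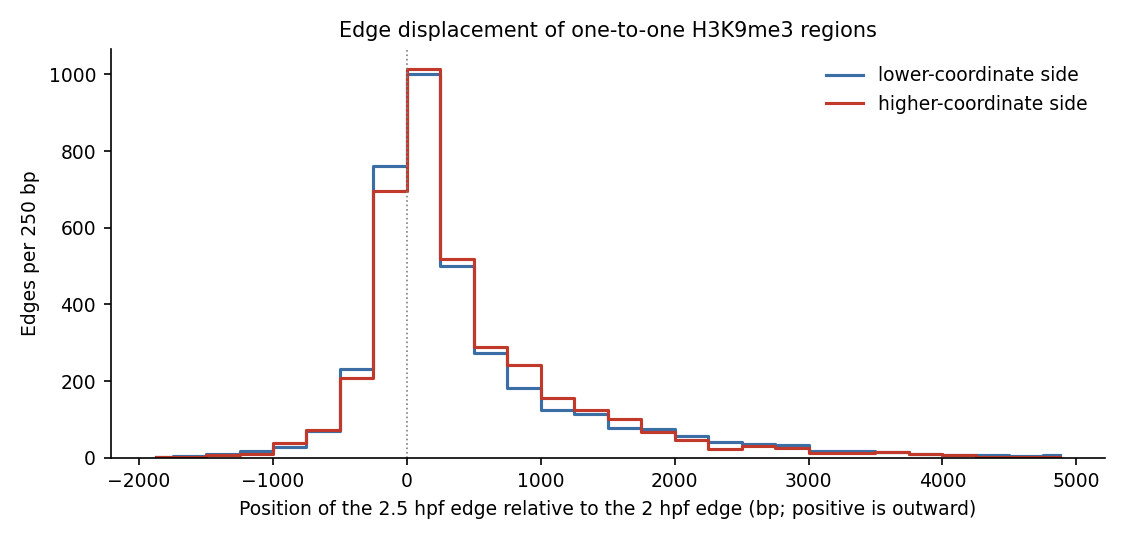
Number of edges per 250 bp by position of the 2.5 hpf edge relative to the 2 hpf edge in bp (positive is outward), for the lower and the higher side of 3763 one-to-one regions. The curves of the 2 sides lie close together, with a long outward tail: the median extension was 543 bp and the median retraction 263 bp. Displacements beyond the axis are not drawn.

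In 4 of the 5 pairs with the largest growth on both sides, most of the growth was on 1 side. On chromosome 18, the 734 bp region from 31581702 to 31582435 lay in a 2.5 hpf region of 16291 bp, with 15163 bp added on the lower side and 394 bp on the higher. The 734 bp of the 2 hpf region were not covered in the 3 hpf and 4 hpf lists and were covered at 3.5 and 4.5 hpf. Also on chromosome 18, the 493 bp region from 48840705 to 48841197 gained 788 bp below and 13823 bp above. On chromosome 5, the 1576 bp region from 55233891 to 55235466 gained 8310 bp below and 2191 bp above. On chromosome 2, the 1075 bp region from 12789144 to 12790218 gained 8538 and 1745 bp. Only the fifth was even, the 1824 bp region on chromosome 1 from 32729113 to 32730936, with 5131 bp below and 5089 bp above. Apart from the first, the 2 hpf stretches of these pairs were fully covered in every later list. Later coverage of the added flanks was not examined.

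At the other extreme stood the widest regions whose edges did not move by 100 bp. On chromosome 5, the region from 1986196 to 1989124 was 2929 bp wide at 2 hpf and 2924 bp at 2.5 hpf. On chromosome 20, the region from 19712577 to 19715107 was 2531 bp wide and then 2622 bp, and it was fully covered in all later lists. On chromosome 17, the region from 23361212 to 23363797 was 2586 bp wide and then 2690 bp, and no base of it was covered from 3 hpf on.

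Some neighbouring regions were joined into one. Of the 2.5 hpf regions, 244 each overlapped several 2 hpf regions and covered the gaps between them. Of these, 221 overlapped 2 regions, 22 overlapped 3 and 1 overlapped 5. The 244 regions overlapped 513 of the 2 hpf regions (7.09%) and had a median width of 5378 bp. Of the 0.680 Mb in those 513 regions, 0.641 Mb was covered at 2.5 hpf. Joining was found between close neighbours. Of gaps up to 1 kb between neighbouring 2 hpf regions, 61.0% were fully covered at 2.5 hpf (114 of 187), and 90.5% of those with both neighbours kept. Of gaps over 1 to 5 kb, 21.6% were covered (154 of 713), and of gaps over 5 to 10 kb 1.44% (7 of 486). The widest gap closed was 8847 bp, and no gap was closed among the 5822 over 10 kb. The covered share of the gap length showed the same order without asking for full closure, at 70.1%, 36.4% and 22.1% in the 3 nearest classes and 7.28%, 3.49% and 0.865% from 10 to 50 kb, from 50 to 100 kb and beyond.

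The region that joined the most lay on chromosome 14 from 28776104 to 28808564, 32461 bp long. It held 5 regions of 2 hpf with 14213 bp in all, and the place was fully covered in every later list. Its authors' p-value was 0.9855, near the highest of the list, 0.9860, beside a signal of 6385. A region of 16134 bp on chromosome 15, from 10772769 to 10788902, overlapped 3 regions with 9971 bp in all, a part of which lay outside it. Of the 16134 bp, 57.3% was covered at 2 hpf and 77.0% at 3 hpf. A region of 12864 bp on chromosome 14, from 26778623 to 26791486, held 3 regions with 3191 bp in all and was fully covered afterwards.

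Of the 2.5 hpf regions, 15116 of 19207 were new (78.7%, interval 78.1% to 79.3%), meaning that they held no base of a 2 hpf region. New regions had about the widths of the 2 hpf list, with a median of 609 bp against 631 bp, a 90th percentile of 1650 bp against 1643 bp and 22.2% against 24.4% at 1 kb or more. The 4091 regions that overlapped a 2 hpf region had a median of 1490 bp and a 90th percentile of 4852 bp. The new share therefore followed the width class of the 2.5 hpf list, at 93.5% under 500 bp, 86.9% from 500 bp to under 1 kb, 68.0% from 1 to under 2 kb, 45.0% from 2 to under 5 kb and 16.6% at 5 kb and over (76 of 457). Of regions named primary 45.3% were new, and of those named secondary 85.9%. Their median widths were 2125 bp and 596 bp, and these shares were not split by width. Wider regions have more bases that can meet an earlier one, so part of the order of the new shares is built into the measure.

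New regions lay closer to 2 hpf regions than the bases of the genome do. Their median distance to the nearest 2 hpf region was 37303 bp. Within 10 kb lay 3869 of them (25.6%, interval 24.9% to 26.3%), and beyond 100 kb 4052 (26.8%). Counted by midpoints, 24.9% lay within 10 kb, where 8.91% of the bases outside 2 hpf regions lie, a ratio of 2.79. Per Mb of such bases there were 41.1 midpoints at 1 to 5 kb, 25.5 at 5 to 10 kb, 15.3 at 10 to 50 kb, 10.2 at 50 to 100 kb and 6.14 beyond 100 kb. The first kb had 21.4 per Mb. A region centred there can touch the 2 hpf region and is then no new region. How far this lowers the value was not tested. Width followed distance, with medians of 764 bp within 1 kb and 503 bp beyond 100 kb, and 12.9% against 3.80% of regions at 2 kb or more. A new region lay within 10 kb of 46.4% of kept 2 hpf regions (44.9% to 47.9%) and of 45.7% of lost ones (43.9% to 47.5%), with overlapping intervals. The 2 sets were not alike. Kept regions were wider, with medians of 788 bp against 500 bp, and DNA joined to a kept region does not count as new. The part of this in the 2 shares was not tested. No share of bases within 10 kb of a new region is given beside them.

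**Figure D3:**
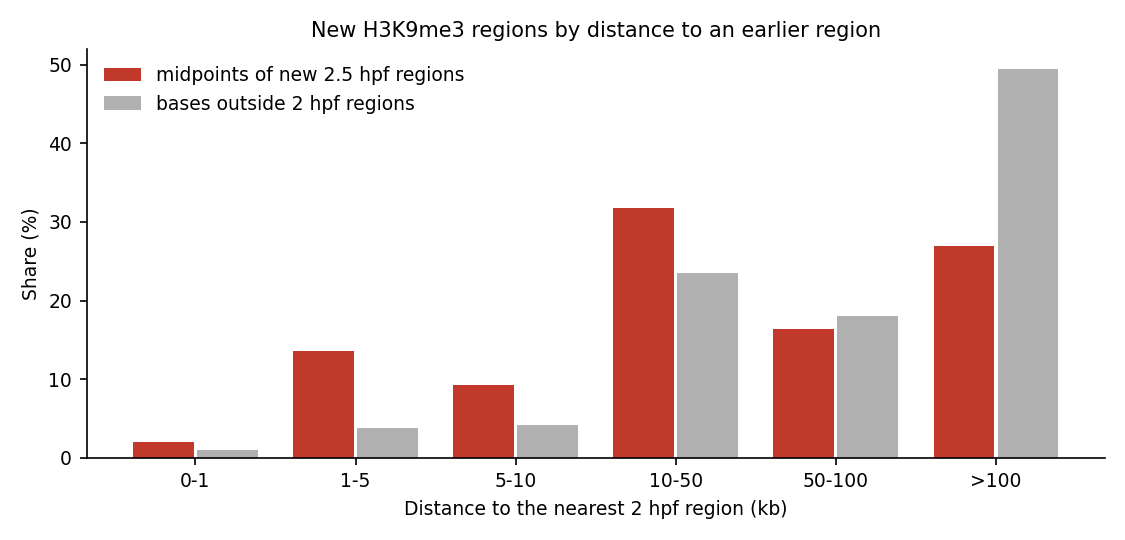
Share (%) of the midpoints of 15116 new 2.5 hpf regions, and of the bases outside 2 hpf regions, by distance to the nearest 2 hpf region in kb. Midpoints exceed bases up to 50 kb, most at 1 to 5 kb with 13.6% against 3.73%, and fall short beyond 100 kb with 26.9% against 49.5%.

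The widest new region lay on chromosome 16 from 15661352 to 15673638, 12287 bp long and 1827 bp from the nearest 2 hpf region. It was fully covered at 3 hpf and over 15.3% at 3.5 hpf, and its authors' p-value was 0.985. The next, on chromosome 12 from 13502197 to 13512923, was 10727 bp long and 1926 bp from a 2 hpf region, and 71.2% of it was covered at 3 hpf. The other three were named primary and stayed covered over at least 99.3% of their length in all later lists. They were 10625 bp on chromosome 3 from 60804452 to 60815076, with an authors' p-value of 3.63e-06 and 49336 bp from a 2 hpf region, 9414 bp on chromosome 9 from 15694060 to 15703473, and 9197 bp on chromosome 21 from 33586075 to 33595271. Wide regions were also found far from any earlier one. On chromosome 24, a region of 8261 bp from 15478847 to 15487107 lay 222077 bp from the nearest 2 hpf region. On chromosome 9, 5458 bp from 23518361 to 23523818 lay 155806 bp away, and on chromosome 17, 5434 bp from 7601772 to 7607205 lay 104820 bp away. All 3 were named primary, and between 91.5% and 100% of each was covered at 3 hpf.

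Windows of 1 Mb, which count the same regions again, held more new regions where they held more 2 hpf regions. This is a measure of density and not of distance. The 86 windows in which no 2 hpf region started had a median of 3 new regions. The median was 5 in windows with 1 or 2, 8 with 3 to 5, 15 with 6 to 10, 23 with 11 to 20 and 34 in the 32 windows with 21 or more. Ranges were wide, and windows with 11 to 20 had between 2 and 56 new regions. The window with the most new length was chromosome 24, 12000001 to 13000000, with 51 new regions over 73.6 kb beside 27 regions at 2 hpf. Next came chromosome 22, 3000001 to 4000000, with 65.4 kb, and chromosome 16, 15000001 to 16000000, with 58.0 kb. Windows at 73000001 to 74000000 on chromosome 7 and at 3000001 to 4000000 on chromosome 3 had 57.7 kb and 57.6 kb. In the one on chromosome 3, 44 regions were listed at 2 hpf and 18 of them were lost.

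**Figure D4:**
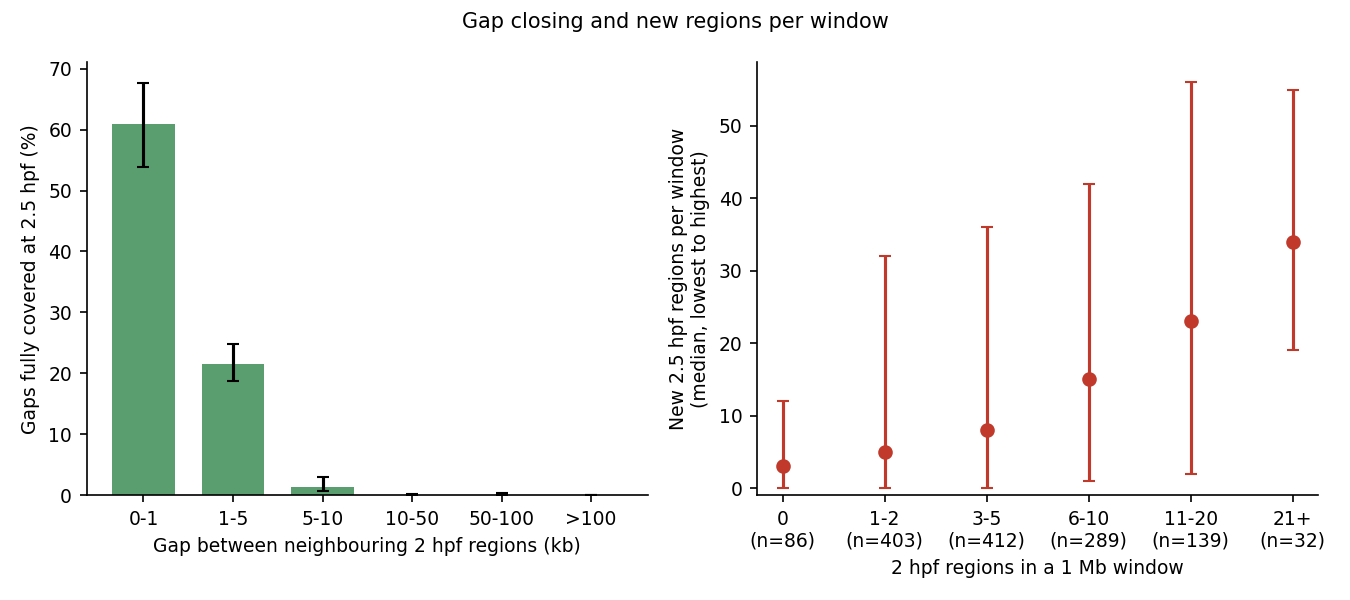
Left, share of gaps between neighbouring 2 hpf regions that were fully covered at 2.5 hpf (%), by gap size in kb, with 95% Wilson intervals. Right, new 2.5 hpf regions per 1 Mb window, as median with lowest and highest, by number of 2 hpf regions in the window. Closing goes from 61.0% of gaps up to 1 kb to none over 10 kb, and the median number of new regions from 3 to 34.

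The spread over single chromosomes differed by measure. The new share ran from 75.7% to 81.7%, and the share of new regions within 10 kb of a 2 hpf region from 18.8% to 32.7%. The kept share was highest on chromosome 19 (69.0%, interval 62.7% to 74.6%) and lowest on chromosome 4 (52.4%, 48.2% to 56.6%). These are the extremes of 25 values, and their difference was not tested. The SD over the 25 chromosomes was 3.66 percentage points. The fold in covered length was highest on chromosome 19 (4.29), where 0.402% was covered at 2 hpf and 1.72% at 2.5 hpf, and lowest on chromosome 22 (3.09), where 0.696% and 2.15% were covered. New regions were densest on chromosome 4, with 15.1 per Mb, and sparsest on chromosome 21, with 9.14 per Mb. On chromosome 4, regions of the long arm, from 28 Mb on, were kept in 51.5% of cases (47.0% to 56.1%) and those before it in 57.3% (46.5% to 67.5%). The long arm held 1011 of the 1177 new regions of this chromosome, at 20.2 per Mb, against 10.9 per Mb over all other chromosomal sequence. The arm was denser at 2 hpf too, with 458 regions over 50.1 Mb, against 6775 over 1295 Mb elsewhere. The new share of the 2.5 hpf regions was 82.3% on the arm and 78.5% elsewhere. In the outer 1 Mb at chromosome ends 65.9% were kept (62.0% to 69.6%), against 59.2% (58.0% to 60.4%) in the interior. New regions numbered 26.0 per Mb at the ends and 10.7 in the interior. Regions of 2 hpf were denser at the ends too, with 11.9 against 5.13 per Mb, and the new share of the 2.5 hpf regions was 77.8% at the ends and 78.8% in the interior.

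**Figure D5:**
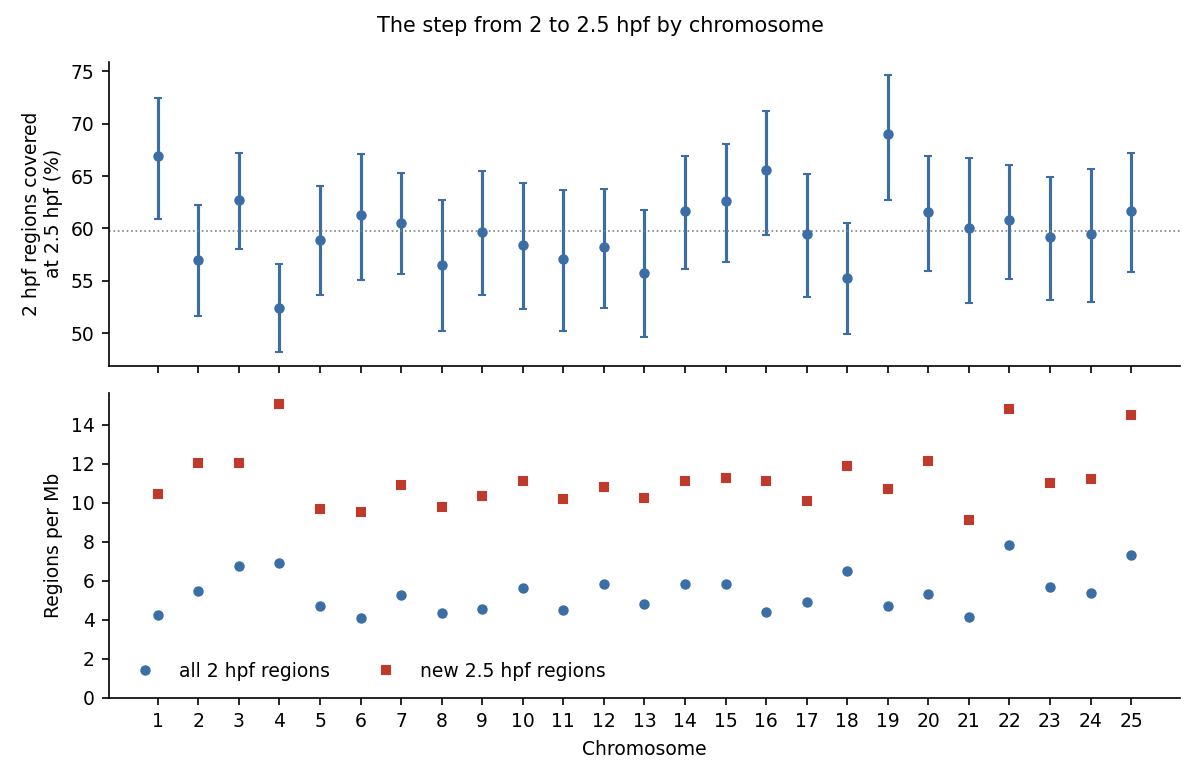
Top, share of 2 hpf regions covered at 2.5 hpf (%) per chromosome with 95% Wilson intervals, the dotted line giving the value over all chromosomes (59.8%). Bottom, 2 hpf regions and new 2.5 hpf regions per Mb. Chromosome 19 lies highest in the top panel (69.0%) and chromosome 4 lowest (52.4%), while chromosome 4 has the most new regions per Mb (15.1).

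The later lists, which played no part in sorting the regions, were used to follow each set. Of kept 2 hpf regions 85.8% were covered at 3 hpf, and of lost ones 41.1% (1195 of 2910). At 4 hpf the shares were 91.1% and 56.6%. In all, 67.2% of lost regions were covered in at least 1 list from 3 to 4.5 hpf. Among regions of 500 bp to under 1 kb, 83.1% of kept and 45.9% of lost ones were covered at 3 hpf, with median widths of 654 and 560 bp. Of new 2.5 hpf regions 61.6% were covered at 3 hpf, and of those overlapping a 2 hpf region 86.2%. Within width classes the gap was smaller. The shares were 40.9% and 55.4% under 500 bp, 60.3% and 76.2% at 500 bp to under 1 kb, and 87.7% and 91.2% at 1 to under 2 kb. From 2 to under 5 kb they were 94.6% and 95.1%, and at 5 kb and over 94.7% and 98.2%. Width still differed within a class, with medians of 626 and 730 bp at 500 bp to under 1 kb. New regions were covered at 3 hpf in 71.4% of cases when within 1 kb of a 2 hpf region and in 58.9% when beyond 100 kb. Their median widths were 764 bp and 503 bp, and these shares were not split by width. For comparison, 3.31% of chromosomal bases were covered at 3 hpf. That is a share of single bases in 1 list, whereas a region counted as covered with 1 bp of overlap. The 2 measures are not alike, and coverage in at least 1 of several lists is easier still to reach. No comparison value was computed for regions, for 4 hpf or for the later lists together.

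The following step, from 2.5 to 3 hpf, gave other values by the same measures, side by side and untested, since the 2.5 hpf list is shared. There 66.8% of earlier regions were kept (59.8% in the first step), 59.6% of later regions were new (78.7%) and 38.6% of new regions lay within 10 kb of an earlier one (25.6%). The 3 hpf step starts from a list of 19207 regions in place of 7233, which by itself puts more bases near an earlier region. A longer earlier list also leaves less room for a later region to count as new. The later list covered 3.31% of chromosomal bases at 3 hpf, against 1.64% at 2.5 hpf in the first step. More coverage by itself makes it easier for an earlier region to count as kept. The part of list size in these shares was not tested. The share of 1-to-1 regions extended on both sides was 34.2%, against 34.3% in the first step. Covered length at 3 hpf was 2.01 times that at 2.5 hpf, against 3.51 times in the first step.

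When the 2.5 hpf list was limited to the 7233 deposited regions of lowest authors' p-value, which merged to 6614, covered length was 2.07 times that at 2 hpf, the kept share 40.8% and the new share 58.6%. Of the length then gained, 40.4% lay in regions overlapping an earlier one, against 27.6% over all regions. Ranking by p-value also picked wide regions, with a median deposited width of 1380 bp against 500 bp in the rest, so list length and width changed together. Some wide regions were dropped as well. The 133 deposited regions at the highest p-value, 0.986, had a median width of 2439 bp. Their median signal was 356.5, against 67.1 over the list. They included 27 of the 332 deposited regions of 5 kb or more.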

How the data were processed

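CUT&RUN libraries for H3K9me3 were summarised by the authors as 1 region list per time. Per the submitters' processing notes, HOMER, bedtools, Picard, SAMtools, STAR and Trim Galore were used, with no roles given. The sources do not state the aligner settings, the region caller or the genome build. The lists have no header. Per the values, the deposited columns hold the start and end of a region, a name, a score, the authors' signal and the authors' p-value. The deposited signal has no stated unit, so it was compared within 1 list only. The deposited p-value was used to rank regions within a list. Positions and scaffolds were taken as deposited.

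Python 3.11.15, numpy 2.4.6 and scipy 1.17.1 were used. Touching regions were merged, chromosomes 1 to 25 kept, and chromosome length set to the furthest region end in any of the 6 lists. A merged region took its lowest p-value and highest signal, and counted as primary if any part was. Distances are edge to edge. Kept means 1 bp of overlap. Edges moved by at least 100 bp count as extended or retracted. Shares have 95% Wilson intervals. All measures equalled a base-by-base count in 200 of 200 simulated pairs of lists. No test was made, since each time is 1 list.

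Regions named were the 5 pairs with the largest growth on both sides, the 3 joining most, the 5 widest lost, the 5 widest new, the 3 widest new ones at least 100 kb away, the 3 widest with unmoved edges, and the 5 windows with most new length. The members and these rules were chosen with earlier results of these data known. Alternatives are given in the closing section.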

Additional observations from a re-analysis of the deposited data

Results flagged for a closer look

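Regions on unplaced scaffolds took no part in the comparison. They numbered 283 at 2 hpf and 831 at 2.5 hpf, and are given because they lay outside the comparison and exceeded a fixed floor of 3 regions. The floor is a setting and no expected count for scaffolds, so exceeding it shows nothing by itself. IgG lists were not analysed. By the same measures 180 of the 283 were kept (63.6%, Wilson interval 57.9% to 69.0%), and 78.5% of the 794 merged regions at 2.5 hpf were new. These shares lie near the 59.8% and 78.7% of the chromosomes, and no test was made.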

How the results depend on the processing

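Of 65 values under other settings, 37 stayed within the Wilson interval of the main value (for gained length and the fold in covered length, within 1 SD over chromosomes) and 28 moved. Leaving out each chromosome in turn gave a kept share of 59.5% to 60.4%, a new share of 78.5% to 78.9% and a fold of 3.49 to 3.53. Leaving out chromosome 4, adding scaffolds, or leaving out regions at the highest p-value of each list (added after the data were seen) moved none of the values run, scaffolds being run for 4 of the 6. Most of the 37 came from these settings and from leaving out single chromosomes, which change a small part of the regions. The highest p-value setting dropped 7 deposited regions at 2 hpf and 133 at 2.5 hpf. Regions with values just below the highest stayed in. Without joining, covered and gained length are the same by construction. The count of 37 is therefore no measure of stability.

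With regions of at least 1 kb in both lists, the kept share was 78.6%, the new share 78.0%, the overlapping share of the gain 21.1%, extension on both sides 48.8%, new regions within 10 kb 11.9% and the fold 4.66. With regions named primary in both lists, the kept share was 59.5%. The other values were 62.8%, 35.6%, 54.8%, 18.1% and 2.61 in the same order. The 59.5% counts overlap with primary 2.5 hpf regions alone. Against the whole 2.5 hpf list, 85.3% of primary 2 hpf regions were kept. With the 7233 deposited 2.5 hpf regions of lowest p-value (6614 after merging), the 6 values were 40.8%, 58.6%, 40.4%, 44.4%, 34.4% and 2.07. Joining regions up to 1 kb apart gave 78.0% new, 36.0% extended on both sides and 24.2% within 10 kb, and no joining gave 27.2% within 10 kb. Asking for 50% coverage of a region gave 53.8% kept and 88.8% new, and the middle base (added after the data were seen) 54.0% and 86.3%. An edge threshold of 1 bp gave 49.2% extended on both sides and one of 500 bp 12.0%. Distance from midpoints gave 24.9% within 10 kb. Stricter settings list fewer regions by construction, and the cause of the moves was otherwise not tested. No replicate could be left out, because the lists hold no value per library. No paired analysis was possible because the lists carry no replicates. Read depth is unknown, so no detection limit can be given for a region that is absent from a list.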
